A study of Mus musculus with 12 samples.

Results

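Forskolin with dexamethasone was compared with no treatment in cultured primary mouse hepatocytes, using 6 of the 12 RNA-seq libraries of the series. The members were the 3 libraries labelled FD and the 3 labelled Mock, taken by treatment label and by no measured value. The hepatocytes, described as wild type, were isolated by collagenase perfusion from a C57/Bl6J mouse whose age and sex the labels do not give, and all groups spent 16 h overnight in serum-free medium. FD cells then received 10 µM forskolin and 1 µM dexamethasone for 5 h before lysis, and Mock cells received neither; a vehicle is not named. The other 6 libraries, 3 per group, had the same 2 agents after a further treatment. This was 100 nM insulin for 1 h (FDI) or 6 µM manganese chloride through the 16 h (FDMn). These libraries enter the filter on low values, the estimate of the spread and the alternative scalings, and a few of their means are given below. Nothing in the labels says that the replicates came from separate animals or cultures, so a p-value here weighs a difference against the spread of 3 such libraries per group, and that spread may be purely technical. Both agents were given together, so the part of each in any change cannot be told apart.

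In the fasted liver, glucagon acts through adenylate cyclase, cAMP and protein kinase A, which phosphorylates CREB and releases its CRTC coactivators, while glucocorticoids bind the receptor encoded by Nr3c1, which then acts on DNA itself or through other factors such as NF-kB and AP-1. Forskolin activates adenylate cyclase directly and dexamethasone is a synthetic agonist of the glucocorticoid receptor. The pair is used to imitate fasting, and is best known for raising the enzymes of glucose production. Genes beyond those enzymes make up most of what follows, and some fall outside the naming rule and were picked after their values were seen; they are listed with the processing.

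Values are TPM, a gene's share of the transcripts of its library scaled to a total of 1000000, and log2 changes are FD minus Mock on log2(TPM + 1), given with their standard error; means are given with the SD of 3 libraries. That scale understates the change of genes with low TPM. A gene was called when its adjusted p was under 0.05, and "rose" or "fell" is written only of called genes. Since TPM is a share of the library, a rise in abundant transcripts lowers all other values, and fewer cells of a type cannot be told apart from less RNA per cell. Of 11544 genes that passed the filter on low values, 11.2% were called higher in FD and 29.9% lower. With a change of at least 2-fold on the log2(TPM + 1) scale, 3.21% and 3.72% were called. Over all genes tested the median log2 change was -0.15, and after median-of-ratios scaling it was -0.00; that scaling called 17.8% higher and 17.1% lower. Both counts are given below where they differ enough to matter. Counts of called members in every gene list are to be read beside these shares of all genes tested. Every FD value lay above every Mock value in 13.3% of all genes tested and below in 34.7%. Such separation of the groups is therefore common here.

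Hepatocyte genes dominated the marker lists in both groups. The summed TPM of 10 hepatocyte genes ran from 42351 to 44977 in Mock and from 44112 to 54067 in FD. Albumin (Alb) was at 26302, 25423 and 25689.5 TPM in Mock and 32589, 30581 and 22624 TPM in FD, with FD replicate 3 below every Mock library and the other FD libraries above them. Mitochondrially encoded transcripts made up 12.3% to 12.9% of TPM in Mock and 13.2% to 15.4% in FD. Among other cell types, 11 Kupffer cell and macrophage genes summed to 333 to 342 TPM in Mock and 318 to 384 TPM in FD, nearly all of it Cd68, and Clec4f, the defining marker of Kupffer cells, stayed at or below 0.149 TPM. The 10 endothelial genes summed to 28.5 to 29.3 and 25.7 to 37.5 TPM and the 10 stellate cell genes to 49.9 to 53.9 and 36.5 to 39.4 TPM. Most of the stellate cell sum was Tagln, a contractile gene, at 44.9 ± 2.93 TPM in Mock and 31.2 ± 1.78 TPM in FD, while Dcn, which encodes the matrix proteoglycan decorin, went the other way, from 1.61 ± 0.241 to 2.83 ± 0.486 TPM (adjusted p = 0.012, a call lost in 1 of 15 alternative analyses). The 8 cholangiocyte genes summed to 1082 to 1126 TPM in Mock and 732 to 803 TPM in FD, mostly Spp1, while Krt7, Krt19 and Cftr were at or below 0.648, 1.24 and 0.0101 TPM. The first principal component of the 6 libraries held 63.8% of the variance and separated the groups, and the second (11%) set FD replicate 2 (23.3) apart from FD replicate 3 (-18.8).

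**Figure D1:**
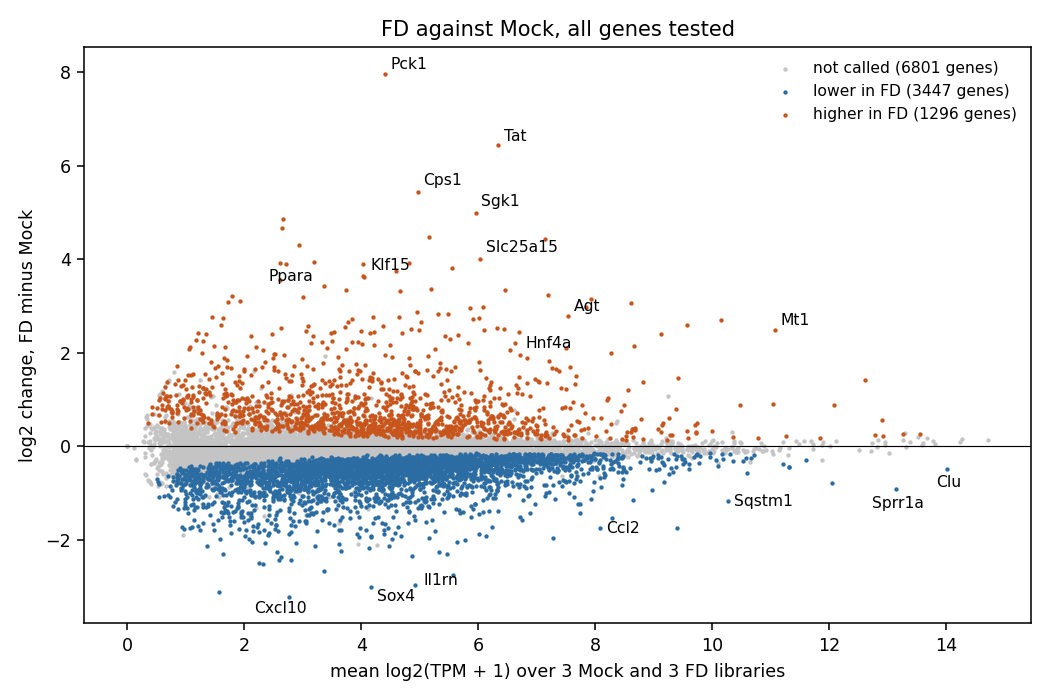
Log2 change (FD minus Mock, vertical axis) of each of the 11544 genes tested against its mean log2(TPM + 1) over the 6 libraries (horizontal axis), coloured by call. The upper tail reaches farther than the lower: 32 called genes lay at or above a log2 change of 3 and 3 at or below -3.

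On the log2(TPM + 1) scale the response was lopsided in its tails. At a log2 change of at least 2 in size, 102 genes were higher and 26 lower. At 3 the counts were 32 and 3, and at 4 they were 10 and 0. Ratios of mean TPM can be larger for genes of low TPM: Rrad was 17.3-fold lower and Cxcl10 14.6-fold lower. The classic targets belonged to the upper tail, with Pck1 at 0.243, 0.245 and 0.540 TPM in Mock and 373, 299 and 339 TPM in FD and Ppargc1a, a coactivator of gluconeogenic genes, at 0.834, 0.793 and 0.747 and 23.7, 18.0 and 18.8 TPM. Other enzymes of the same pathway moved far less: pyruvate carboxylase (Pcx) was 1.23-fold higher and fructose-bisphosphatase (Fbp1) 1.27-fold higher (adjusted p = 0.015 and 0.03). Both calls were lost without Mock replicate 2, without FD replicate 1 and without FD replicate 3, each left out in turn, and the Fbp1 call also when genes of low TPM were not filtered out and when the fit held only the 6 libraries.

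Of the 12 largest rises under the naming rule, 5 encode enzymes or carriers of amino acid and urea metabolism (Tat, Cps1, Aass, Cdo1 and Slc25a15), and 2, Pck1 and G6pc, encode enzymes of glucose production. The 12 largest rises and 12 largest falls were taken only from called genes without overlap between groups. Neither trait is therefore a result for them. Sgk1, a serine/threonine kinase gene known as a target of the glucocorticoid receptor, was at 9.40, 11.8 and 8.91 TPM in the Mock libraries and 376, 339.8 and 337 TPM in the FD libraries. Cdo1, cysteine dioxygenase, which starts the oxidation of cysteine to taurine and sulfate, was at 27.1, 30.1 and 31.1 TPM in Mock and 648, 689 and 628 TPM in FD. The log2 changes of Sgk1 and Cdo1 were 5.00 ± 0.10 and 4.43 ± 0.06 (adjusted p = 4.5e-12 and 1.5e-13). Etnppl, a phospholyase that degrades phosphoethanolamine, rose 17.5-fold to 109 ± 13 TPM (SD, n = 3). Rasgef1b, a guanine nucleotide exchange factor for Rap2, rose 25.3-fold to 35.2 ± 5.26 TPM, and Arl4d, a small GTPase gene, 19.4-fold to 62.1 ± 1.77 TPM. In the groups given insulin or manganese as well, the means of Arl4d were 52.2 ± 5.27 TPM (FDI) and 61.1 ± 2.90 TPM (FDMn), while those of the urea cycle enzyme Cps1, at 207 ± 29.9 TPM in FD and 3.76 ± 0.714 TPM in Mock, were 34.8 ± 4.18 and 79.7 ± 2.94 TPM. These comparisons share the FD libraries, and no test of them is given here.

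Sequences matching the known DNA elements of the 2 hormone routes lie just before a RefSeq start of a few of these genes. RefSeq promoter windows on GRCm38.p6, 250 bases before to 50 after each start, were searched for the full cAMP response element TGACGTCA, which is its own reverse complement, and for a perfect glucocorticoid response element, the arm AGAACA followed after 3 bases by its inverse TGTTCT, which reads the same on both strands. Of all 32851 windows, 1.79% held the first and 0.00913% the second. A window was found for 8817 of the 11544 genes tested (76.4%), under the 80% set for such checks, so a comparison of shares between gene groups was void and is not given. Of the 799 genes changed at least 2-fold, 593 have a window. Among these, 10 that were higher and 9 that were lower held the full cAMP element before the start. The 1.79% counts matches anywhere in the windows of all genes, so these counts are not to be read against it. A match is a description of the letters, not evidence of binding. The stretches below were picked as examples, after the values were seen, from called genes that rose; each runs 5′ to 3′ on the gene's own strand and ends before the start, and the capitals mark the element.

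Arl4d, chr11:101665475-101665540 (plus strand): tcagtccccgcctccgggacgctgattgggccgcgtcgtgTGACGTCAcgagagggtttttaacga
Slc25a25, chr2:32424169-32424256 (minus strand): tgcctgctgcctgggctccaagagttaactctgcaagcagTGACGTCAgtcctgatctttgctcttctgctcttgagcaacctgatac
Dusp1, chr17:26508568-26508655 (minus strand): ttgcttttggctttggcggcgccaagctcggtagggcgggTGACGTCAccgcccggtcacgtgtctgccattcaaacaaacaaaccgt
Sgk1, chr10:21993661-21993755 (plus strand): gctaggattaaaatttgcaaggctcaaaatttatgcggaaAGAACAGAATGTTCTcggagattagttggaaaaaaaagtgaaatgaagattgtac
Acnat2, chr4:49408199-49408293 (minus strand): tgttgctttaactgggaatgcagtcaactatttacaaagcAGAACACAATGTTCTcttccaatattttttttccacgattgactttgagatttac

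In these windows the cAMP element began 26 bases before the start of Arl4d, 150 before that of Slc25a25 and 143 before that of Dusp1. The glucocorticoid element began 189 bases before the start of Sgk1 and 102 before that of Acnat2, an acyl-CoA:amino acid N-acyltransferase gene. A gene can have several RefSeq starts. For Slc25a25, Dusp1 and Sgk1 the start used here lies inside the gene as annotated by GENCODE. Other starts of these genes are not described, and which start the reads come from was not tested. Among the genes tested that have a window, Sgk1 and Acnat2 were the only ones with the perfect glucocorticoid element before the start. Acnat2 was at 0.274, 0.121 and 0.232 TPM in Mock and 2.83, 2.34 and 2.24 TPM in FD, and is one of 13 called genes with every Mock value under 0.5 TPM and every FD value at or above 2 TPM.

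The 13 genes include the receptor gene Adra2a, an alpha-2 adrenergic receptor that couples to inhibition of adenylate cyclase, which was listed at 0 in all 3 Mock libraries and stood at 4.91, 3.73 and 4.60 TPM in FD. Others among the 13 were G6pc, Adh7, an alcohol and retinol dehydrogenase, Tox and Fezf1, nuclear factors, Fam107a, Fam222a, Cd24a, Cyp17a1, the steroid 17-alpha-hydroxylase, Acnat2 and Rgs2. Tox was at 0, 0.248 and 0.154 TPM in Mock and 8.32, 9.55 and 7.96 TPM in FD, and Fam107a at 0, 0.0534 and 0.0724 and 6.60, 5.29 and 6.59 TPM. The reverse pattern was found in 3 genes, Gm37988, Gm48417 and Rrad, a Ras-related GTPase gene, which was at 2.62, 3.84 and 2.28 TPM in Mock and 0.0876, 0 and 0.418 TPM in FD.

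Genes of cAMP signalling are given as those known to restrain it and those that transmit it; the lists were not tested against each other. Of 21 feedback genes 15 were tested, 8 of which rose and 2 fell (median log2 change 0.91). Rgs2, which shortens G protein signalling, was at 0, 0 and 0.0616 TPM in Mock and 4.53, 3.08 and 4.43 TPM in FD. Crem, whose locus encodes the repressor ICER, rose 3.14-fold and Sik1, a kinase that keeps CRTC coactivators out of the nucleus, 2.93-fold, to 52.0 ± 4.56 and 62.5 ± 2.56 TPM. The cAMP phosphodiesterase genes Pde4b, Pde3b, Pde4d and Pde10a rose 2.86-fold, 2.10-fold, 2.10-fold and 2.16-fold. Pde8a was level at 13.8 ± 1.98 and 13.6 ± 1.30 TPM (adjusted p = 0.95). Among 18 tested components of the pathway itself, 3 rose and 6 fell, and after median-of-ratios scaling 4 and 2. The share of falls on TPM was near the 29.9% of all genes tested that were called lower. The 2 coactivator genes Crtc2 and Crtc3 fell, 1.43-fold and 1.93-fold, and did so under both scalings. Rapgef4, the cAMP-activated exchange factor Epac2, rose 3.06-fold to 12.1 ± 1.95 TPM and the anchoring protein gene Akap12 4.29-fold. The catalytic subunit gene Prkaca had a log2 change of -0.25 ± 0.08 (adjusted p = 0.019), a call lost after median-of-ratios or quantile scaling, without Mock replicate 3, without FD replicate 3, and with only the 6 libraries in the fit.

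Transcription factor genes moved in both directions within each family. Of 48 nuclear receptor genes 34 were tested, 8 of which rose and 17 fell; after median-of-ratios scaling the counts were 10 and 13. Nr4a3, an orphan receptor and immediate-early gene, was at 0.377, 0.977 and 0.416 TPM in Mock and 20.8, 26.7 and 20.9 TPM in FD. Ppara, the fatty acid receptor that drives the fasting programme of fat oxidation, was at 1.93, 1.96 and 2.51 TPM in Mock and 37.0, 27.6 and 34.6 TPM in FD. The log2 changes of Nr4a3 and Ppara were 3.91 ± 0.15 and 3.44 ± 0.13 (adjusted p = 9.7e-10 and 1.2e-09). The 3 members of the NR4A family differed in size: Nr4a2 rose 1.98-fold and Nr4a1 1.43-fold, against 38.6-fold for Nr4a3. The Nr4a1 call was lost when FD replicate 3 stood as the only FD library.

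Hnf4a, a master regulator of hepatocyte genes on chromosome 2 (rounded, 163506800 to 163572900) of GRCm38, was at 51.0, 51.8 and 53.5 TPM in Mock and 208, 202 and 206 TPM in FD, with little spread in either group. The bile acid receptor Nr1h4 and the xenobiotic receptor Nr1i2 rose 1.97-fold and 2.08-fold, and the clock-linked receptor Rora 2.67-fold. Falls were seen in the retinoic acid receptors Rarg (4.37-fold lower) and Rara (1.94-fold), in the orphan receptor Nr2f6 (2.08-fold) and in the mineralocorticoid receptor Nr3c2 (3.32-fold). The glucocorticoid receptor gene Nr3c1 itself was at 19.3, 22.4 and 21.9 TPM in Mock and 16.7, 15 and 14.8 TPM in FD, a log2 change of -0.43 ± 0.09 (adjusted p = 0.0022). The lowest Mock value of Nr3c1 exceeded the highest FD value.

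Of 22 liver transcription factors, all tested, 8 rose and 6 fell (10 and 3 after median-of-ratios scaling). Foxo1, the factor that insulin signalling keeps out of the nucleus, was at 4.79, 5.47 and 5.59 TPM in Mock and 23.7, 21.5 and 22.2 TPM in FD, and the pioneer factor Foxa2 rose 2.35-fold to 67.9 ± 6.83 TPM. Among Krüppel-like factors, 12 of 17 were tested, 3 rose and 4 fell (4 and 2 after median-of-ratios scaling), and 2 members known as glucocorticoid targets led the rises. Klf15, a regulator of amino acid breakdown, was at 3.79, 3.44 and 3.93 TPM in Mock and 59.2, 53.2 and 60.2 TPM in FD, and Klf9 rose 2.52-fold to 45.4 ± 0.987 TPM. Klf7 and Klf16 fell 2.26-fold and 2.39-fold. Among 17 tested AP-1 and C/EBP factors 4 rose and 4 fell (6 and 3 after that scaling), with 47.1% called on TPM beside 41.1% of all genes tested. Cebpb rose 2.19-fold and Maff, a small MAF protein gene, 2.39-fold, while Junb was at 101, 123.1 and 101 TPM in Mock and 23.0, 26.2 and 30.1 TPM in FD and Fosl1 fell 2.17-fold.

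Clock genes moved in both directions. Of 22 clock genes 21 were tested, 6 rose and 6 fell (9 and 3 after median-of-ratios scaling). Over all genes tested 11.2% were called higher and 29.9% lower on TPM, so the falls stood near the share of all genes. Per1, a repressor of the clock that both hormones are known to induce, was at 3.94, 4.17 and 5.28 TPM in Mock and 31.8, 32.2 and 29.0 TPM in FD. Nr1d1, which encodes the repressor REV-ERB-alpha, was at 17.1, 20.7 and 17.2 TPM in Mock and 5.59, 5.98 and 4.22 TPM in FD. The 2 genes did not overlap between groups, in opposite directions. Arntl, the activator that REV-ERB proteins repress, rose 2.44-fold, and Cry2, Per2 and the repressor Nfil3 rose 3.11-fold, 2.40-fold and 1.88-fold. Nr1d2 fell 2.11-fold and the output factor Dbp was at 1.13, 0.977 and 1.92 TPM in Mock and 0.375, 0.396 and 0.525 TPM in FD. The Dbp call was lost when FD replicate 3 stood as the only FD library. Samples were taken at a single time after treatment, so the phase of the clock was not measured.

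**Figure D2:**
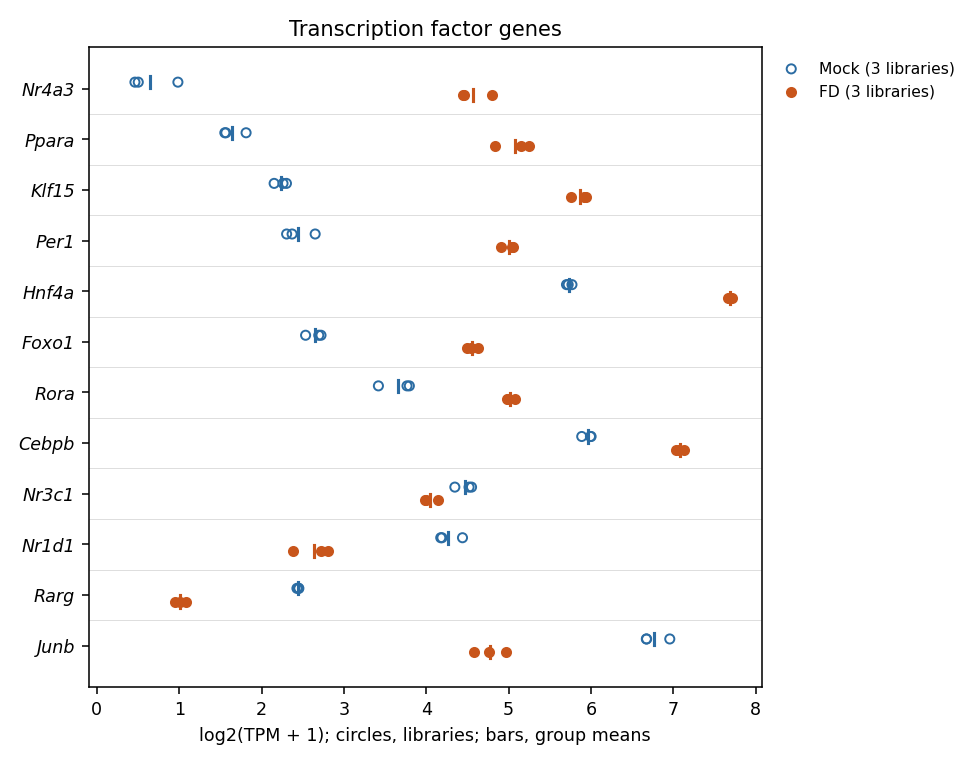
Log2(TPM + 1) of 12 transcription factor genes (horizontal axis) in each of the 3 Mock libraries (open circles) and 3 FD libraries (filled circles); bars are group means. The groups stand apart in each of the 12 genes, 8 of them with FD above Mock and 4, from Nr3c1 to Junb, with FD below.

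Carriers and transporters of amino acids changed in both directions, in the mitochondrion and at the plasma membrane. Of 47 mitochondrial carrier genes (the SLC25 family) 39 were tested, 10 of which rose and 7 fell (11 and 3 after median-of-ratios scaling). On TPM 43.6% were called in either direction, near the 41.1% of all genes tested. Slc25a15, which exchanges ornithine for citrulline across the inner membrane in the urea cycle, was at 15, 15.2 and 15.8 TPM in Mock and 271, 244 and 272 TPM in FD (log2 change 4.01 ± 0.06, adjusted p = 4.8e-13). The glutamate carrier Slc25a22 was at 13.5, 18.2 and 15.7 TPM in Mock and 116, 119 and 119 TPM in FD. Slc25a25, an ATP-Mg/phosphate carrier, rose 5.96-fold to 74.1 ± 5.12 TPM, and a promoter window of this gene holds the cAMP element printed above. The aspartate/glutamate carrier Slc25a13 (1.91-fold) and the mitochondrial NAD carrier Slc25a51 (3.14-fold) rose as well. Slc25a37, the iron importer mitoferrin-1, was lower in every FD library, at 37.9, 42.4 and 37.1 TPM in Mock and 9.23, 9.80 and 10.9 TPM in FD. Slc25a24 and Slc25a23, which transport ATP-Mg and phosphate like Slc25a25, fell 1.51-fold and 1.5-fold, so this subfamily did not move as a unit.

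At the plasma membrane 4 of 24 tested amino acid transporter genes rose and 10 fell, and after median-of-ratios scaling 8 and 7. The cationic amino acid transporter Slc7a2, which brings in arginine, lysine and ornithine, was at 11.3, 9.89 and 10.3 TPM in Mock and 121, 108 and 122 TPM in FD. The neutral and cationic transporter Slc38a4 rose 2.00-fold, from 208 ± 6.10 to 416 ± 30.5 TPM, and the aromatic amino acid transporter Slc16a10 rose 1.64-fold. In contrast the large neutral amino acid exchanger Slc7a5 was at 20.6, 25.7 and 20 TPM in Mock and 6.24, 6.42 and 4.47 TPM in FD. The serine and alanine transporter Slc1a4, the taurine transporter Slc6a6 and the glycine transporter Slc6a9 fell 2.99-fold, 2.10-fold and 1.80-fold. Slc38a2, an adaptive transporter of small neutral amino acids picked after its values were seen, was at 32.2 ± 1.13 and 36.4 ± 2.97 TPM (adjusted p = 0.13), and was called higher after median-of-ratios scaling. The cytosolic tRNA synthetases, which charge tRNAs with amino acids, moved down: 16 of 20 fell and 1 rose (12 and 1 after median-of-ratios scaling). Each change was under 2-fold, from Yars (1.70-fold lower) to Eprs (1.14-fold higher), whose call was lost in 4 of 15 alternative analyses, among them those without Mock replicate 1 and without FD replicate 1.

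**Figure D3:**
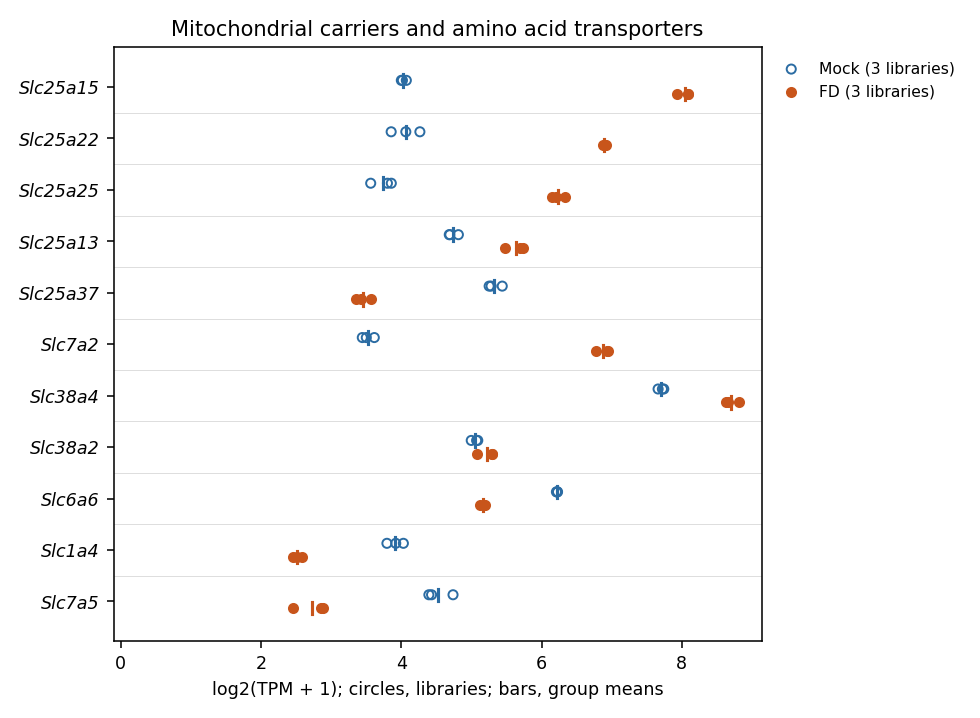
Log2(TPM + 1) of 5 mitochondrial carrier and 6 plasma membrane amino acid transporter genes (horizontal axis) in each Mock library (open circles) and FD library (filled circles), with group means as bars. Slc25a15, Slc25a22 and Slc7a2 show the widest gaps upward, Slc25a37 and Slc7a5 the widest downward, and Slc38a2 is nearly level.

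Of 38 listed hormones and binding proteins 30 were tested, 10 rose and 5 fell (17 and 3 after median-of-ratios scaling). Nrg4, a growth factor of the ErbB ligand family that is best known from brown fat, was at 3.31, 1.95 and 6.77 TPM in Mock and 60.9, 56.4 and 52.9 TPM in FD. Agt, angiotensinogen, was at 69.8, 67.2 and 70.9 TPM in Mock and 495, 432 and 543 TPM in FD. The lowest FD values stood well above the highest Mock values in both, and log2 changes were 3.64 ± 0.25 and 2.80 ± 0.07 (adjusted p = 2.4e-07 and 2.2e-11). Fetuin-A (Ahsg) rose 1.87-fold to 2888 ± 300.1 TPM, the stress hormone Gdf15 2.10-fold to 35.4 ± 3.90 TPM and Tsku, a secreted small proteoglycan, 1.81-fold. Inhba, the activin A subunit, was at 46.0, 54.0 and 47.0 TPM in Mock and 12.2, 13.9 and 10.9 TPM in FD. Fgf21, a hormone of the fasted liver in vivo, was at 0.683, 1.19 and 0.818 TPM in Mock and 0, 0 and 0.362 TPM in FD, so its low level fell further (adjusted p = 0.0079). Of the 6 libraries only Mock replicate 2 reached 1 TPM, so this fall lies near the floor. Fgf21 passed the filter on low values through the other groups, with 4.45 ± 1.08 TPM in FDI. The Fgf21 call was lost when FD replicate 3 stood as the only FD library. Angptl4, a fasting-induced lipase inhibitor, did not pass the test and was chosen after its values were seen; it was at 55.4 ± 7.90 and 59.1 ± 6.55 TPM (adjusted p = 0.54).

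Receptor genes for other hormones changed in both directions. Of 25 tested receptor genes 8 rose and 5 fell, with 52% called in either direction beside 41.1% of all genes tested. The interleukin-6 receptor Il6ra was at 5.67, 5.58 and 5.51 TPM in Mock and 30.6, 29.4 and 30.4 TPM in FD, and its signalling partner Il6st rose 1.44-fold. Fgfr2 rose 4.03-fold. The glucagon receptor Gcgr, chosen after its values were seen, was at 23.1 ± 4.83 in Mock and 21.6 ± 1.82 TPM in FD (adjusted p = 0.62). The hepatocyte growth factor receptor Met fell 1.51-fold.

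Of 22 tested glycogen genes 9 rose and 3 fell. Subunits that bring the phosphatase PP1 to glycogen did not move together: Ppp1r3c rose 7.27-fold to 8.66 ± 1.25 TPM, while Ppp1r3e fell 1.65-fold to 8.61 ± 1.68 TPM (adjusted p = 7.1e-08 and 0.0029). Ppp1r3b, the main liver form, was at 4.22, 3.06 and 3.62 TPM in Mock and 16.2, 13.4 and 13.3 TPM in FD, and Ppp1r3g, listed at 0 in all 3 Mock libraries, was at 1.66, 1.02 and 1.64 TPM in FD. Ugp2, which makes UDP-glucose, rose 2.40-fold to 263 ± 24.0 TPM. The synthase isoform usually found in muscle, Gys1, rose 3.95-fold to 18.0 ± 0.773 TPM. The liver isoform Gys2, chosen after its values were seen, was at 1.20 ± 0.241 and 2.18 ± 1.52 TPM (adjusted p = 0.26). Glycogen phosphorylase (Pygl), chosen in the same way, rose from 71.4 ± 3.75 to 80.9 ± 2.79 TPM (adjusted p = 0.029), a call lost without Mock replicate 1 or 2 and without FD replicate 1 or 2.

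Lipid droplet coat genes moved in opposite directions. Of 22 tested genes of droplets and lipases 7 rose and 2 fell (11 and 2 after median-of-ratios scaling). On TPM 40.9% were called in either direction, beside 41.1% of all genes tested. Plin4 was at 1.74, 1.44 and 1.80 TPM in Mock and 24.8, 21.6 and 23.6 TPM in FD, and Plin5, which ties droplets to mitochondria, rose 5.00-fold. Plin2, the main droplet coat of hepatocytes, was at 533, 543 and 515 TPM in Mock and 155, 177 and 221 TPM in FD. The 3 perilipins thus showed no overlap between groups, Plin2 in the opposite direction. Over all genes tested 48% showed none. The triglyceride lipase Pnpla2 rose 1.40-fold, and G0s2, the inhibitor of that lipase, fell from 9.29 ± 1.38 to 3.74 ± 0.898 TPM (adjusted p = 6.6e-05). Hilpda, another inhibitor of it, rose 3.18-fold. Among 22 tested genes of apolipoproteins and VLDL assembly 11 rose and none fell, under 2-fold except for the receptor Vldlr (3.03-fold higher). Apoc3, an inhibitor of lipoprotein lipase, rose 1.43-fold to 690.0 ± 102 TPM and Apoa5 1.64-fold.

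Of 75 cytochrome P450 genes of families 1 to 4, 40 were tested, 11 rose and 4 fell, where 41.1% of all genes tested were called in either direction (19 and 2 after median-of-ratios scaling). Cyp2b10, the usual reporter of the receptor CAR, was at 7.82, 5.87 and 7.23 TPM in Mock and 101, 66.5 and 73.5 TPM in FD. The CAR gene Nr1i3 did not pass the filter, with highest values of 0.61 TPM in Mock and 0.496 TPM in FD. The part of CAR in the Cyp2b10 change was not tested. Cyp2c70, which makes muricholic acids, was at 27.5, 26.0 and 22.8 TPM in Mock and 120.0, 119 and 125 TPM in FD. Among 47 tested conjugating transferases 9 rose and 1 fell (18 and none after that scaling), the sulfotransferases Sult1a1 and Sult1d1 by 6.55-fold and 5.43-fold. Members of these families have near-identical relatives, and reads could be split between them.

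Chemokine and cytokine genes had the lowest median log2 change of the gene lists. Of 42 chemokine and cytokine genes 23 were tested, 14 of which fell and 1, the EGF receptor ligand Tgfa, rose. That median was -1.08, and 14 fell after median-of-ratios scaling too. Ccl2, which draws monocytes, was at 479.9, 545 and 476 TPM in Mock and 133, 149 and 161 TPM in FD. Cxcl10, which draws T cells, was at 19.6, 19.6 and 20.1 TPM in Mock and 0.933, 2.51 and 0.614 TPM in FD. The interleukin-1 receptor antagonist Il1rn, which damps rather than drives inflammation, was at 78.3, 92.9 and 78.9 TPM in Mock and 10.6, 13.9 and 6.23 TPM in FD. All 3 genes were lower in every FD library than in any Mock library. Their log2 changes were -1.75 ± 0.11, -3.23 ± 0.26 and -2.97 ± 0.20 (adjusted p = 1.5e-07, 1.2e-06 and 2.4e-07). Cxcl10 and Il1rn are among the largest falls under the naming rule, taken only from called genes without overlap between groups. Neither the call nor the separation is therefore a result for Cxcl10 and Il1rn. Ccl2 was not taken in that way, but 34.7% of all genes tested showed the same separation. Csf1 and Il34, the ligands of the macrophage receptor CSF1R, fell 4.94-fold and 10.2-fold. Cxcl9, chosen after its values were seen, was at 36.9 ± 4.73 TPM in Mock and 44.1 ± 3.06 TPM in FD (adjusted p = 0.1), and was called higher after median-of-ratios scaling.

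Most tested genes of the NF-kB pathway and its targets fell. Of 26 genes of the pathway 22 were tested, 17 fell and none rose, and after median-of-ratios scaling 16 fell and 3 rose. Nfkb1, the p105 subunit gene, was at 40.4, 48.5 and 44.0 TPM in Mock and 12.5, 11.3 and 14.4 TPM in FD. The adhesion molecule Icam1 was at 28.9, 25.6 and 29.1 TPM in Mock and 8.25, 7.31 and 7.20 TPM in FD. The inhibitors fell too: Nfkbie 4.50-fold and Tnip1 2.23-fold, and Nfkbia, chosen after its values were seen because glucocorticoids are known to induce it in other cells, from 43.2 ± 0.846 to 24.3 ± 1.90 TPM. Sod2, a mitochondrial superoxide dismutase and NF-kB target chosen in the same way, was at 168 ± 2.87 and 175 ± 6.10 TPM (adjusted p = 0.38 on TPM, called higher after the second scaling). The summed Kupffer cell and macrophage markers given above overlapped between the groups and the cholangiocyte sum was lower in FD; their part in these falls was not tested.

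For 3 of the genes that fell, picked as examples after the values were seen, the stretch before the start is shown. Capitals mark matches to the NF-kB consensus, searched on either strand, and overlapping matches merge into 1 run of capitals. The consensus occurs in 8.46% of all windows. How many of the genes that fell or rose hold it is not given, and a match is not evidence of binding.

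Cxcl10, chr5:92348943-92349088 (minus strand): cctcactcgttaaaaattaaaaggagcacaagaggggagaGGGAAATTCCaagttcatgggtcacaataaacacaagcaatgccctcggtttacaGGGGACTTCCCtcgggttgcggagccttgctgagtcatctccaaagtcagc
Cxcl1, chr5:90891134-90891224 (plus strand): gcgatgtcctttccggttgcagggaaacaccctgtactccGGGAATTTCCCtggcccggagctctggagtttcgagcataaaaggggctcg
Tnip1, chr11:54962947-54963038 (minus strand): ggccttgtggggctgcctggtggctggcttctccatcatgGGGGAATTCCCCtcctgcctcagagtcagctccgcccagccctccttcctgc

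Cxcl10 holds separate runs, the first beginning 159 bases before the start, and in Cxcl1 and Tnip1 the run begins 71 and 58 bases before it. Cxcl1 was at 37.2, 29.7 and 29.3 TPM in Mock and 10.4, 11.2 and 9.95 TPM in FD, and Tnip1 at 52.8, 55.3 and 56.3 and 26.1, 23.8 and 23.9 TPM.

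Of 35 junction and keratin genes 29 were tested, 21 fell and 4 rose (20 and 4 after median-of-ratios scaling). E-cadherin (Cdh1) was at 102, 107 and 107 TPM in Mock and 35.1, 38.5 and 41.2 TPM in FD. Cingulin (Cgn), a scaffold of tight junctions, was at 84.3, 80.6 and 86.4 TPM in Mock and 29.8, 30.4 and 31.6 TPM in FD. Neither gene overlapped between the groups, at log2 changes of -1.44 ± 0.07 and -1.42 ± 0.07. The gap junction gene Gjb2 and the tight junction genes Cldn3 and F11r fell 2.70-fold, 2.22-fold and 2.19-fold. Claudins split, since the pore-forming Cldn2 was at 13.3, 14.5 and 14.6 TPM in Mock and 43.3, 42.9 and 45.4 TPM in FD and Cldn14 rose 3.22-fold. The keratins Krt8 and Krt18, the filament pair of hepatocytes, fell by less, 1.30-fold and 1.35-fold. The lower cholangiocyte sum in FD, mostly Spp1, moved with these falls, and its part was not tested. That sum also holds Cldn4, itself a claudin gene, which fell from 176 ± 17.7 to 61.3 ± 6.00 TPM. Sox9, in the same sum, was at 32.7 to 38.7 TPM in Mock and 15.4 to 18.7 TPM in FD.

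**Figure D4:**
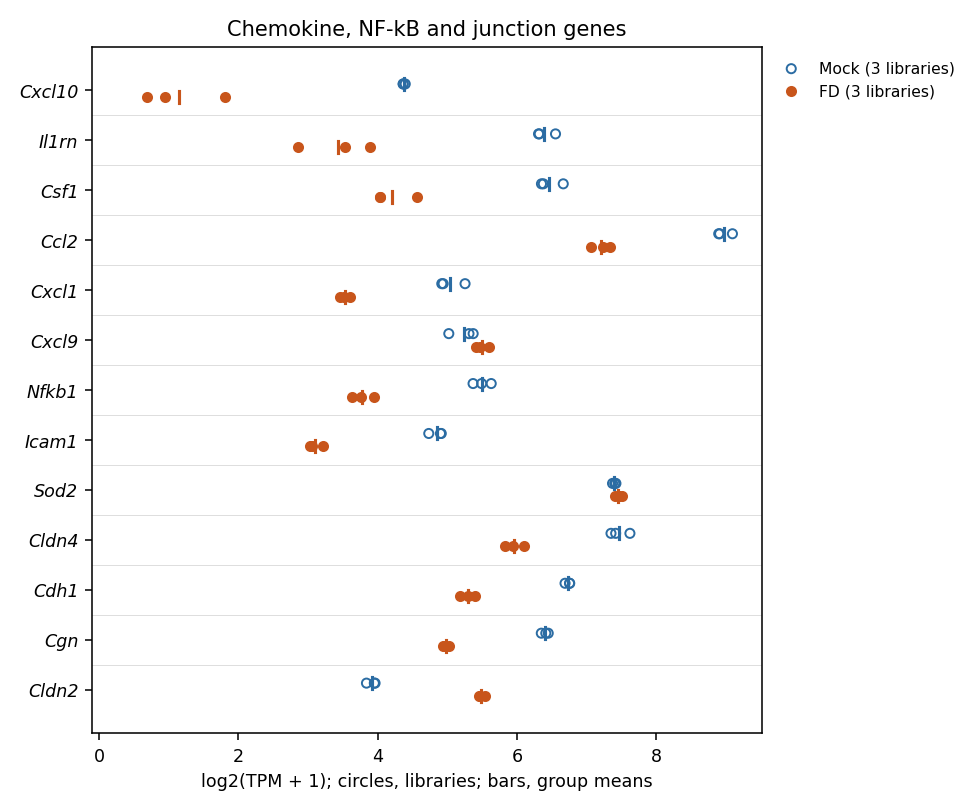
Log2(TPM + 1) of 13 chemokine, NF-kB and junction genes (horizontal axis) in each Mock library (open circles) and FD library (filled circles), with group means as bars. FD lies to the left of Mock in 10 genes, overlaps or nearly touches it in Cxcl9 and Sod2, and lies to the right in Cldn2.

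Genes of the actin cytoskeleton fell as well. Of 26 tested contractile and SRF genes 20 fell and none rose, but after median-of-ratios scaling 13 fell and 1 rose. Beta-actin (Actb) was at 5389.9, 6039.7 and 5298 TPM in Mock and 3181, 3517 and 3006 TPM in FD, and Fhl2, a cofactor of actin signalling, fell 2.47-fold. Of 18 tested YAP-TEAD genes 8 fell and 3 rose (6 and 5 after that scaling). The target Ccn1 was at 331, 374 and 344 TPM in Mock and 135, 125 and 130.1 TPM in FD, Ankrd1 fell 2.59-fold and the coactivator Wwtr1 2.06-fold. Its paralog Yap1, chosen after its values were seen, was at 52.8 ± 4.14 and 52.9 ± 6.41 TPM (adjusted p = 0.997).

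Genes of growth factor feedback and growth arrest were divided. Of 28 tested genes of the ERK feedback list 14 fell and 5 rose (11 and 7 after median-of-ratios scaling). Dusp1, a MAP kinase phosphatase induced by both cAMP and glucocorticoids, was at 89.1, 97.0 and 83.3 TPM in Mock and 306, 282 and 266 TPM in FD. Dusp10, a phosphatase of JNK and p38, was at 109, 113 and 106 TPM in Mock and 42.4, 39.3 and 40.5 TPM in FD, the reverse. Phlda1 and Ier3, immediate-early genes, fell 5.42-fold and 4.10-fold. In the list of growth arrest and cell cycle entry 14 of 28 rose and 10 fell, with 14 and 9 after median-of-ratios scaling. The Gadd45 family parted: Gadd45a was at 102, 116 and 85.3 TPM in Mock and 24.9, 23.2 and 22.1 TPM in FD and Gadd45b fell 3.60-fold, while Gadd45g rose 2.24-fold. The kinases Plk3 and Plk2 parted likewise, Plk3 rising 7.72-fold to 47.1 ± 1.55 TPM and Plk2 falling 2.53-fold. The cell cycle inhibitor Cdkn1a rose 2.34-fold to 275 ± 16.1 TPM, while Cdkn2b, another inhibitor, fell 4.31-fold.

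In the BMP and TGF-beta feedback list 6 of 10 tested genes fell and 3 rose. Id2, an inhibitor of helix-loop-helix factors, was at 21.8, 20.7 and 20.3 TPM in Mock and 109, 105 and 129 TPM in FD. Tgif1 and Pmepa1, which limit TGF-beta signalling, fell 3.73-fold and 3.66-fold. Outside that list, the transcription factor gene Sox4 was at 51.0, 47.6 and 51.0 TPM in Mock and 5.56, 5.84 and 4.56 TPM in FD.

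For the respiratory chain, ribosomal proteins and the proteasome the calls depended on the scaling. Of 80 tested nuclear genes of the respiratory chain 4 rose and 1 fell on TPM, and 33 rose and none fell after median-of-ratios scaling, at median log2 changes of 0.04 and 0.20. Of 79 ribosomal protein genes 8 fell and none rose on TPM, against none and 2 with the other scaling. Of 43 proteasome genes 13 fell and 1 rose, against 3 and 4. Over all genes tested 29.9% were called lower on TPM. The proteasome falls stood near that share and the ribosomal protein falls below it. No called member of these 3 lists changed 2-fold on the log2(TPM + 1) scale. Of 41 autophagy genes 14 rose and 6 fell, against 17 and 5, with 48.8% called on TPM beside 41.1% of all genes tested. Uvrag, a subunit of a PI3-kinase complex, and Bnip3, a mitophagy receptor, rose 2.86-fold and 2.59-fold. The cargo receptor Sqstm1 was at 1819, 2028 and 1728 TPM in Mock and 785, 807 and 867 TPM in FD, 1 of the 8 largest decreases in TPM.

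**Figure D5:**
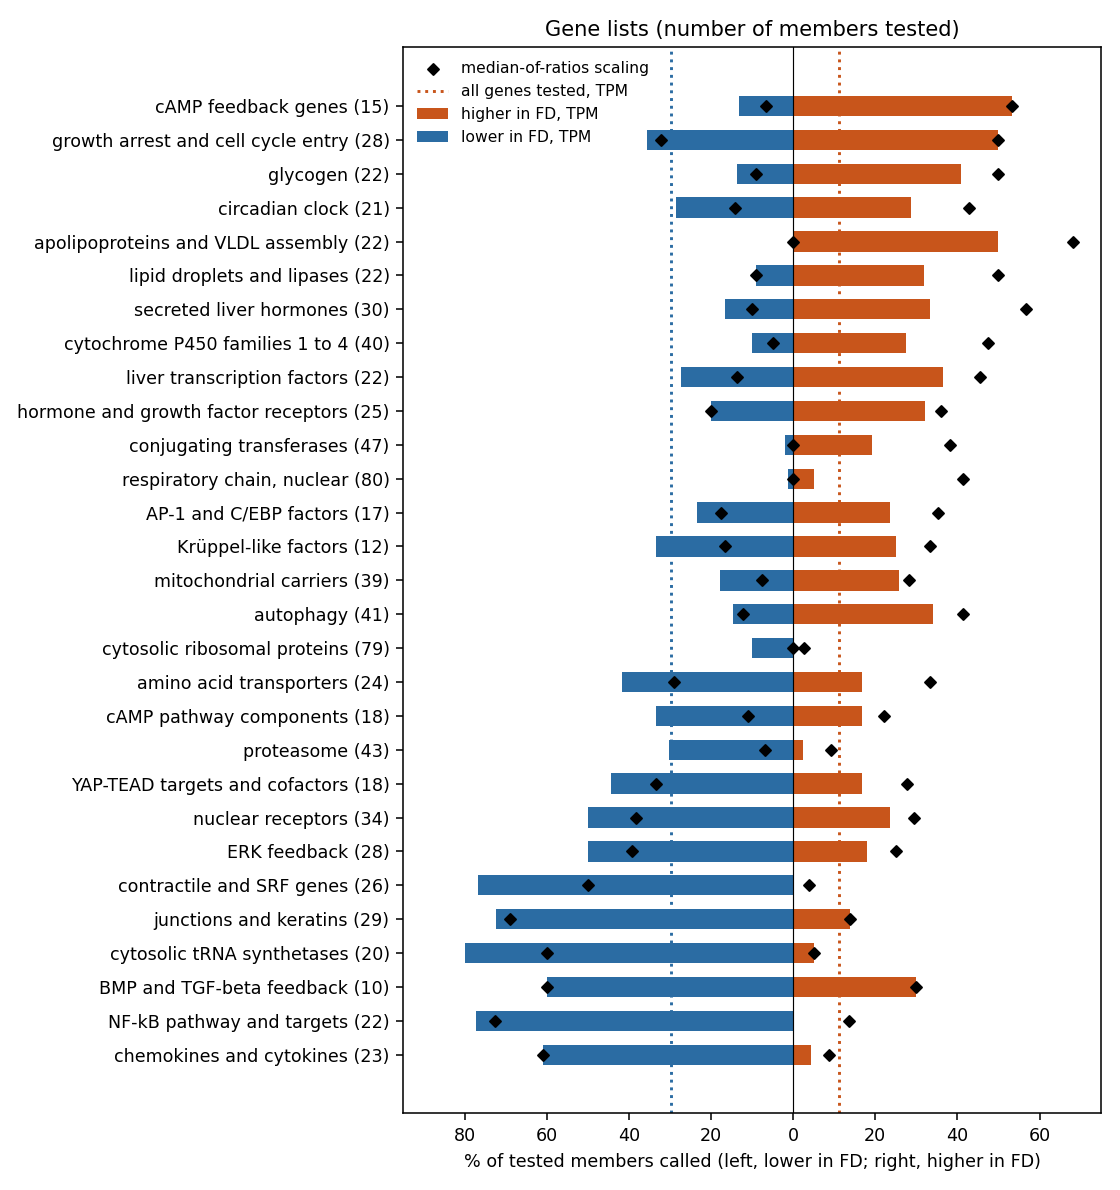
Share of the tested members of each gene list called higher in FD (bars to the right) or lower (bars to the left) on TPM, ordered by the median log2 change, with diamonds for median-of-ratios scaling and dotted lines for all genes tested (11.2% and 29.9%). Chemokine, NF-kB, tRNA synthetase, junction and contractile genes reach farthest to the left, and diamonds stand far to the right of the bars for the respiratory chain, the P450 genes and the conjugating transferases.

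Counted in TPM, a few genes carried much of the change. Genes called higher gained 66892 TPM in all and genes called lower dropped by 73809 TPM, 36.7% and 24.1% of which came from the 8 largest changes. The metallothioneins Mt1, at 883, 874 and 957 TPM in Mock and 5352, 5046 and 4967 TPM in FD, and Mt2 were among the 8 largest increases. So were the mitochondrially encoded mt-Nd5, mt-Nd1 and mt-Co2, at 1.47-fold, 1.21-fold and 1.21-fold. The calls of mt-Nd1 and mt-Co2 were lost in 2 and 9 of 15 alternative analyses, that of mt-Co2 also without any 1 of the Mock libraries, FD replicate 2 or FD replicate 3. The largest increase was in reads assigned to Olfr1033, annotated as an olfactory receptor, from 3856 ± 364 to 10305 ± 865 TPM, and Chd9, a chromatin remodeller gene, went from 443 ± 14.1 to 2903 ± 166 TPM. Whether these reads come from the annotated coding sequence was not tested. The largest decreases were in Sprr1a, a cornified envelope protein gene, at 12219, 12827 and 12299.6 TPM in Mock and 6698, 6933 and 6109 TPM in FD, and in clusterin (Clu), a secreted chaperone, from 19641 ± 622 to 14164 ± 1033 TPM.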

How the data were processed

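Poly(A) RNA-seq libraries of the 12 samples were summarised by the authors in 1 deposited table of TPM for 36144 gene symbols, each library summing to 1000000. Per the submitters' processing notes, kallisto 0.44.0, GRCm38.p6 and DESeq2 were used; their roles, the annotation release, strand handling and any filter are not stated by the sources at hand. TPM keeps no depth, so counting error is unknown, and reads of overlapping or antisense genes and of near-identical paralogs could not be told apart.

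Samples were grouped by their treatment labels. Genes with at least 1 TPM in at least 3 of the 12 libraries (11544) were tested on log2(TPM + 1) with limma 3.58.1 in R 4.3.3, with 1 term per group over all 12 libraries, an intensity trend, and Benjamini-Hochberg adjustment over all genes tested; the threshold was 0.05. The script was checked on simulated data. Gene coordinates are those of GENCODE M21 on GRCm38, rounded. Alternatives changed the scaling (median of ratios or quantile), the pseudocount, the filter, the libraries in the fit, the trend and the replicate block. Folds are ratios of group means of TPM.

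The members, the 30 gene lists and the 7 marker lists were chosen with earlier results of these data known. Genes were named by a rule: the 12 highest and 12 lowest log2 changes among called, non-overlapping, non-predicted genes with a group mean of at least 5 TPM; the 8 largest increases and decreases in TPM; up to 4 members per list and direction with the smallest adjusted p; up to 10 genes per direction, by mean TPM, among those switching between under 0.5 and at least 2 TPM in every library; and the gluconeogenic and marker genes. Outside that rule, and picked after their values were seen, are Angptl4, Apoa5, Cldn3, Crem, Cxcl1, Cxcl9, Gadd45g, Gcgr, Gdf15, Gys2, Krt8, Nfkbia, Nfkbie, Nr1h4, Nr1i2, Nr1i3, Nr2f6, Nr3c2, Nr4a1, Nr4a2, Pde3b, Pde4d, Pde8a, Pde10a, Per2, Pnpla2, Ppp1r3g, Pygl, Slc25a13, Slc25a51, Slc38a2, Sod2, Tsku, Yap1 and Acnat2. Some genes are not reported here.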

Additional observations from a re-analysis of the deposited data

How the results depend on the processing

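Scaling mattered most. Of all calls 72.7% were lower on TPM, 48.9% after median-of-ratios scaling and 55% after quantile normalization. On TPM 1296 genes were called higher and 3447 lower; median-of-ratios scaling gave 2059 and 1972, and quantile normalization 1782 and 2178. Of the 4743 calls on TPM, 3268 and 3453 were made in the same direction under those scalings. The other alternatives kept all 4 counts within 1.5 times. Leaving out 1 library in turn gave 1167 to 1247 genes higher and 2949 to 3240 lower. With FD replicate 3 as the only FD library, where its spread is assumed to be that of the other groups, 1048 were higher and 2378 lower, and Alb turned from a log2 change of 0.13, not called, to -0.19; it was called higher after median-of-ratios scaling and without FD replicate 3. Of 248 called genes named by the rule, 195 were called in the same direction in all 15 alternatives.

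The shared replicate numbers do not pair the samples: correlations of same-numbered deviations were 0.03, -0.04 and -0.00, and FD replicate 2 correlated best with Mock replicate 1 (0.05). With the replicate number as a block 1279 genes were called higher and 3381 lower. Depth is unknown, so whether a gene listed at 0 lacks reads by chance could not be judged. The effect of each agent alone, of a vehicle and of time was not analysed here.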

Other observations

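Tat and Aass were among the 12 largest rises. Tat, which starts the breakdown of tyrosine, was at 6.66, 8.89 and 7.58 TPM in Mock and 859, 648 and 764 TPM in FD, and Aass, which starts that of lysine, at 6.28, 6.04 and 7.49 and 179, 163 and 164 TPM. The adjusted p was 1.2e-12 in both (limma), and the lack of overlap between groups was fixed by the choice of these genes.

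Several of the 12 largest falls belonged to no list. Pdgfb, a growth factor for stellate cells and pericytes, was at 5.97, 6.82 and 5.10 TPM in Mock and 0.356, 0.334 and 0.514 TPM in FD. Frmd6, a membrane-linked protein of the Hippo pathway, fell 7.54-fold. Eepd1, a nuclease-domain protein known as a target of liver X receptors, was at 24.8 ± 0.760 TPM in Mock and 3.11 ± 0.812 TPM in FD (n = 3 libraries each). Inava, a regulator of cell junctions and cytokine signalling, fell 8.17-fold. All of these were called lower by limma on all genes tested, as the choice of the 12 largest falls requires.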
